A study of Mus musculus with 6 samples.

Results

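Cell cycle and replication genes were followed in mouse skin that carries a targeted Hoxc13 allele. Hoxc13 encodes a homeodomain factor made in hair follicles, nails and tongue papillae. The set was defined by name as 41 cyclins, kinases, replication factors, mitotic regulators and inhibitors, whatever their values, and 38 of them had a probe set among the 16331 probe sets tested. Pcna, Mki67 and Ccnb1 were not analysed here. Dissected skin was profiled on Affymetrix 3′ arrays in 3 mutant samples, given in the labels as Hoxc13 knockout with the allele Hoxc13tm1Mrc, and in 3 wild type samples. All 6 samples were labelled as male skin on a C57BL/6 background, taken at 5 dpn per their titles. The samples of each group are called independent in the design text, and the sources used here give neither their litters nor whether the mutants were homozygous. The values are log2 RMA values, so a difference of 1 is a 2-fold change, and with 3 arrays a group their number sets the precision.

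A dividing cell enters the cycle when D-type cyclins with Cdk4 or Cdk6, and then E-type cyclins with Cdk2, release E2F transcription factors from the retinoblastoma protein. E2F factors switch on the genes that license and copy DNA, and a later wave of transcription, driven by Mybl2 and Foxm1, supplies the mitotic kinases and their regulators. In growing hair follicles, the matrix at the base of the bulb divides rapidly and its daughters differentiate into the shaft and the inner root sheath, while basal epidermis and outer root sheath hold further dividing cells. The comparison asks whether the transcripts of dividing cells are kept in skin that has lost its hair shaft transcripts. In whole skin, fewer dividing cells and less RNA per cell cannot be told apart.

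The sequences around the starts of these genes were searched for elements of both waves. A few are shown here because the licensing and mitotic genes are described separately in the results. RefSeq promoter windows of GRCm38.p6, from 250 bases before to 50 after the start, were found by gene ID for 30 of the 38 measured genes, with the first listed window used for each gene. Letters were searched on both strands. The E2F element was taken as TTTCCCGC, TTTCGCGC, TTTGCCGC or TTTGGCGC, the cell cycle homology region (CHR) as TTTGAA or TTCGAA, and the CCAAT box as CCAAT. The stretches that follow are from licensing genes, each 60 bases long and read 5′ to 3′ on the gene's strand, with the E2F match in capitals. The Mcm5 stretch holds 2 matches that overlap.
Mcm7 (chr5:138172015-138172074, minus strand): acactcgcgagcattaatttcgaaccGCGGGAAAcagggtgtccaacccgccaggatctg
Mcm5 (chr8:75109334-75109393, plus strand): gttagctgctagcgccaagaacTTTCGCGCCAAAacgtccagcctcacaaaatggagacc
Mcm6 (chr1:128359719-128359778, minus strand): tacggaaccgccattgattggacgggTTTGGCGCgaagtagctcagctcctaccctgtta
Cdc6 (chr11:98907987-98908046, plus strand): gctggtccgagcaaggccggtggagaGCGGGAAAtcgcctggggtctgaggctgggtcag

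For the mitotic genes, stretches of the same length that end at the base before the start are shown with the CHR match in capitals. The genes shown are those with a match in that stretch. In Ccnb2 and Bub1b the matches lay further upstream or after the start, and in Aurka, Plk1 and Bub1 only after it. Lower-case ccaat or attgg in them marks a CCAAT box on either strand.
Cdc20 (chr4:118437344-118437403, minus strand): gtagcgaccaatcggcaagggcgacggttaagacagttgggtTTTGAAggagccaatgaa
Cdk1 (chr10:69352913-69352972, minus strand): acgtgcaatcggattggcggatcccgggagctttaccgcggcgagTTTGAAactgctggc
Kif11 (chr19:37376322-37376381, plus strand): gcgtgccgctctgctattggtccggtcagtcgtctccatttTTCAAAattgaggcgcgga
Top2a (chr11:99024190-99024249, minus strand): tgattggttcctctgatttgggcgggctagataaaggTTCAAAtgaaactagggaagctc

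Of the 8 licensing and helicase genes with a window, 6 held an E2F element, against 626 of 27025 genes in the whole promoter table (2.32%). Among the 10 mitotic genes with a window, 1 held an E2F element and 9 held a CHR element, against 19.4% of all genes. A CCAAT box was found in 6 of the 8 licensing genes and 9 of the 10 mitotic genes, against 37.9% of all genes. The licensing genes held a CHR element in 3 of 8 (37.5%), and none of the 3 nucleotide-supply genes with a window held an E2F element. In Cdt1 and Mcm3 the E2F letters lay only after the start. Of the 5 G1 genes with a window 1 (Cdk2) held an E2F element and 0 a CHR element. The inhibitor and transcription factor genes held 0 of either. Over all 30 genes with a window, 8 held an E2F element (26.7%) and 12 a CHR element (40%). Outside the set, an E2F element was found in 10 of 38 further replication genes (26.3%) and 3 of 47 further mitotic genes (6.38%), and a CHR element in 7 of 38 (18.4%) and 33 of 47 (70.2%). Of 7 hair shaft keratin genes with a window, 6 held the CHR letters and none an E2F element, so the letters of the CHR are not particular to dividing cells. These are matches of letters and not shown to be bound.

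**Figure D1:**
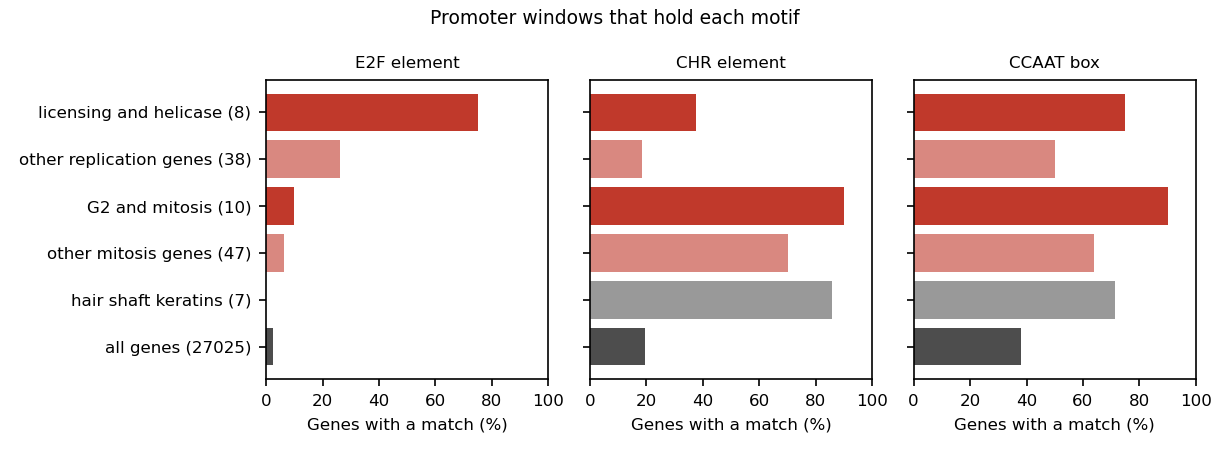
Share of genes (%) whose promoter window holds an E2F element, a CHR element or a CCAAT box, with the number of genes that have a window in brackets. E2F letters were found in 75% of the licensing and helicase genes and 2.32% of all genes, and CHR letters in 90% of the G2 and mitosis genes and 19.4% of all genes.

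Before the comparison, the arrays were checked against their labels. Along the second principal component (15.5% of the variance) mutant replicate 3 lay far from mutant replicates 1 and 2, and its correlation with them over all probe sets was 0.9891 and 0.9901, against 0.9972 between the other mutant arrays. Hoxc13 itself read 8.95, 8.75 and 9.74 in mutant replicates 1 to 3, against 9.63, 9.81 and 9.83 in wild type, so the value of mutant replicate 3 fell among those of wild type. The sources used here do not say whether these probes detect the targeted allele. Xist read 11.15 to 11.67 and the 6 Y-linked probe sets 2.98 to 4.89 on the 6 arrays, which goes against the male label in both groups. Keratinocyte markers were present in both groups, with list means of 10.31 to 10.63 in mutant and 10.17 to 10.30 in wild type skin for basal markers, and 12.48 to 12.63 against 12.54 to 12.57 for suprabasal markers. Results that rest on mutant replicate 3 are given below with and without it.

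Cell cycle transcripts differed little between mutant and wild type skin, and a small rise of the D-type cyclin gene Ccnd2 was the only difference that passed the test. Ccnd2 was called higher and no gene lower among the 38 measured genes, in limma with Benjamini-Hochberg adjustment over all 16331 probe sets. That is 2.63% of the genes called higher and 0% lower, against 0.478% and 1.6% of all probe sets, a single gene. The differences ran from -0.20 for Cdkn1a to 0.37 for Cdkn1b, with a median of 0.072 against 0.025 over all probe sets. The 95% intervals of all 38 differences lay inside a 2-fold change in either direction, which also held for 96.9% of all probe sets. Mutant and wild type values were fully separated in 4 of the 38 genes (Ccnd2, Ccnd3, Cdk6 and Mcm7), all higher in mutant skin (10.5%, against 12.5% of all probe sets) and 0 lower (against 7.82%). At an unadjusted p under 0.05 there were 3 genes higher (7.89%, against 8.44% of all probe sets) and 0 lower (against 5.93%). By contrast, all 10 measured hair shaft keratins fell (100%, against 1.6% of all probe sets), with a median of -6.28. Krt35, an early shaft keratin, read 6.46, 6.13 and 6.09 in mutant skin, against 13.11, 13.05 and 13.24 in wild type skin.

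**Figure D2:**
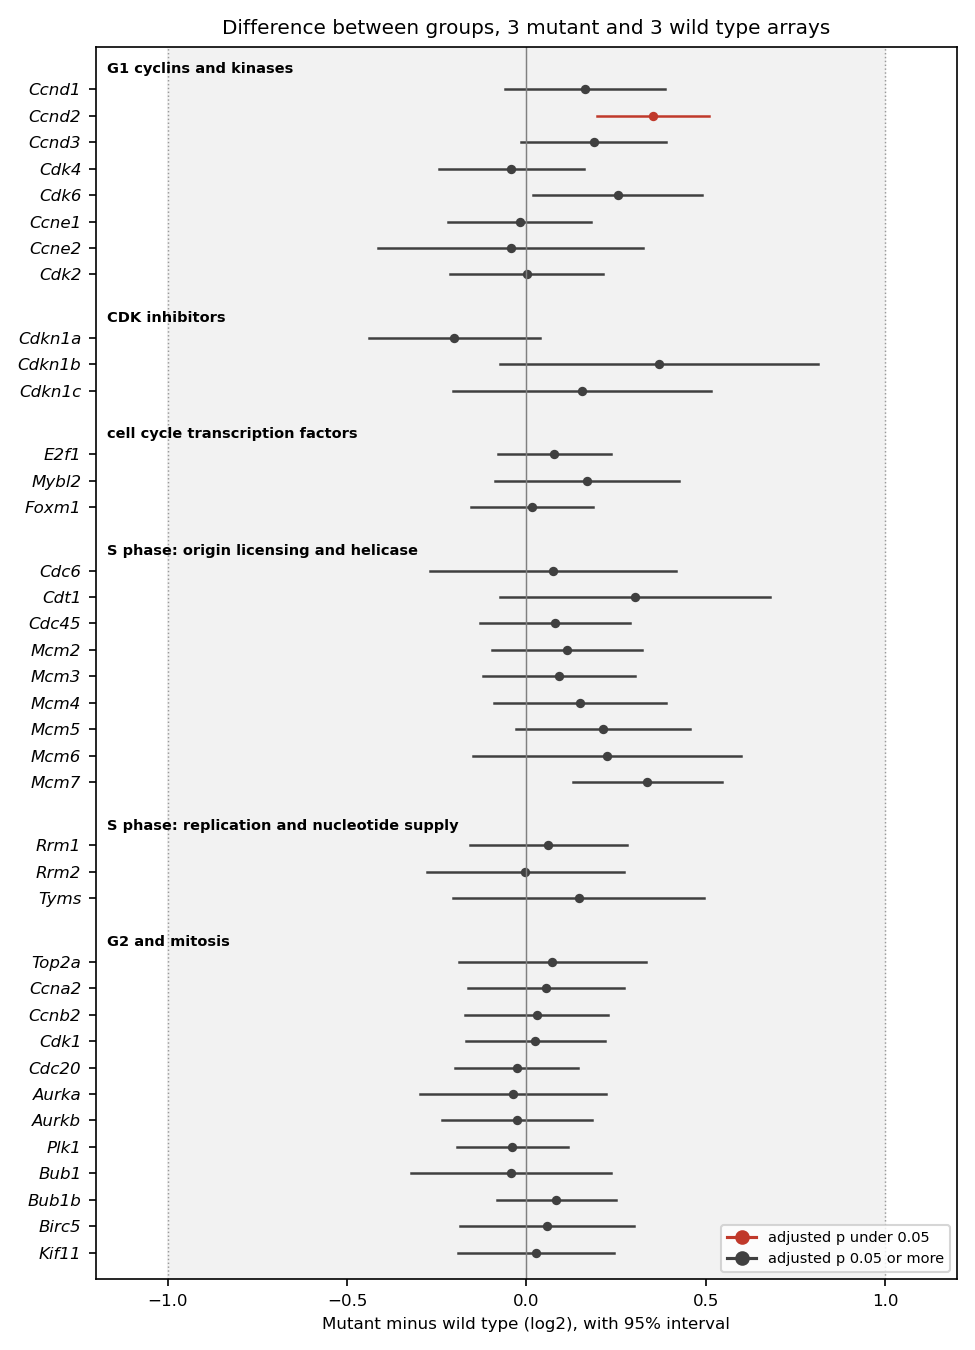
Mutant minus wild type difference (log2) of each of the 38 measured genes with its limma 95% interval, from 3 mutant and 3 wild type arrays, grouped by role. Ccnd2 alone is marked as past the threshold, and every interval lies between -0.44 and 0.81, inside the shaded 2-fold range.

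Among the G1 genes only Ccnd2 passed the test. Ccnd2 (Entrez gene 12444) read 11.58, 11.49 and 11.53 in mutant replicates 1 to 3, against 11.15, 11.22 and 11.17 in wild type replicates 1 to 3. All mutant values lay above all wild type values, and both groups were tight, at 11.53 ± 0.04 and 11.18 ± 0.04 (SD, n = 3 each). The difference of 0.35 (SE 0.07) is a 1.28-fold rise, with a 95% interval of 1.15 to 1.42-fold (limma adjusted p = 0.0457). The call was narrow. It held without mutant replicate 3 and was lost when any of the 5 other arrays was removed, with differences between 0.33 and 0.38. The value on mutant replicate 3 was within 0.01 of the average of mutant replicates 1 and 2, so Ccnd2 was as high on the array that stood apart as on those.

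Ccnd3, the third D-type cyclin gene, read 9.22, 9.39 and 9.15 in mutant skin, against 9.08, 9.13 and 8.99 in wild type skin, without overlap. The limma test did not call it (0.19, SE 0.09, adjusted p = 0.378). Cdk6, a kinase partner of these cyclins, read 5.75, 5.68 and 5.61 in mutant skin, against 5.25, 5.44 and 5.60 in wild type skin, again without overlap but with neighbouring extremes. Its difference was 0.25 (SE 0.10, limma adjusted p = 0.315), and its values lie near the lower quartile of the arrays (5.485), where RMA compresses differences. Ccnd1 read 11.18, 11.14 and 11.43 in mutant skin, against 11.02, 11.16 and 11.09 in wild type skin, and mutant replicates 1 and 3 lay above every wild type array. Its difference was 0.16 (SE 0.10, limma adjusted p = 0.484), and 0.072 without mutant replicate 3. The other kinase partner, Cdk4, differed by -0.042, with overlapping groups.

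The genes that drive entry into S phase differed little. Ccne1 differed by -0.019, and Cdk2, the kinase that the E-type cyclins activate, had a mean of 10.25 in both mutant and wild type skin. Ccne2 differed by -0.044, and by 0.14 without mutant replicate 3, and its mutant arrays were split. Mutant replicates 1 and 2 read 8.68 and 8.71 and mutant replicate 3 read 8.14, against 8.66, 8.40 and 8.60 in wild type skin. The median over the 8 G1 genes was 0.082, and their 95% intervals ran from -0.41 to 0.51.

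The CDK inhibitors, which hold cells out of the cycle, did not pass the test with all arrays, and their differences lay on both sides of 0. Cdkn1a encodes p21, a target of p53 that is also induced in differentiating keratinocytes. It read 11.09, 10.95 and 11.32 in mutant skin, against 11.35, 11.35 and 11.27 in wild type skin, and 2 mutant arrays lay below every wild type array while mutant replicate 3 lay among them. The difference was -0.20 (SE 0.10, limma adjusted p = 0.42), and without mutant replicate 3 it was -0.30 (limma adjusted p = 0.037). Cdkn1c, which encodes p57, showed the reverse order. It read 10.51, 10.53 and 9.96 in mutant skin, against 10.19, 10.27 and 10.07 in wild type skin, so that mutant replicates 1 and 2 lay above and mutant replicate 3 below every wild type array. Its difference was 0.15 (SE 0.16, limma adjusted p = 0.701), and 0.34 without mutant replicate 3 (limma adjusted p = 0.0297). Cdkn1b, which encodes p27, read 6.83, 6.74 and 6.83 in mutant skin, against 5.95, 6.77 and 6.57 in wild type skin. Its spread came from wild type replicate 1, and the difference of 0.37 (SE 0.19, limma adjusted p = 0.427) was 0.13 without that array.

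The transcription factors of the cycle showed no called difference. E2f1, which turns on replication genes, read 7.47, 7.43 and 7.43 in mutant skin, against 7.43, 7.33 and 7.33 in wild type skin (difference 0.077, SE 0.07, limma adjusted p = 0.653). Mybl2, which acts with the CHR-binding complex in late S phase, read 6.72, 6.72 and 7.02 in mutant skin, against 6.61, 6.80 and 6.54 in wild type skin. Only on mutant replicate 3 was it higher than on every wild type array (0.17, SE 0.11, limma adjusted p = 0.53). Foxm1, which drives the mitotic genes, differed by 0.015 (SE 0.07, limma adjusted p = 0.956), with overlapping groups. It too read highest on mutant replicate 3, at 7.77, against 7.62 to 7.73 in wild type skin. The means of this list were 7.275, 7.286 and 7.403 in mutant replicates 1 to 3.

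In the licensing and helicase genes the mutant arrays disagreed. These 9 genes encode the Mcm2 to Mcm7 ring and factors that load it onto DNA or turn it into the replicative helicase. All 9 had a positive difference (100%, against 57.6% of all probe sets), with a median of 0.149, but none passed the test. At an unadjusted p under 0.05 in limma, 1 was higher (11.1%, against 8.44% of all probe sets) and 0 lower (against 5.93%). In all 9, mutant replicates 1 and 2 lay above every wild type array, a pattern found in 27.2% of all probe sets. Mutant replicate 3 read lower than both other mutant arrays in all 9, against 37.5% of all probe sets, and 0.16 to 0.60 below their mean. It lay below every wild type array in 5 of them (Cdc6, Cdt1, Cdc45, Mcm3 and Mcm6, or 55.6%, against 26% of all probe sets), within their range in 3 (Mcm2, Mcm4 and Mcm5) and above it in Mcm7. Among all 38 genes, 9 had mutant replicates 1 and 2 above and mutant replicate 3 below every wild type array (23.7%, against 6.71% of all probe sets), namely these 5 with Ccne2, Cdkn1c, Rrm2 and Birc5.

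Mcm7, a subunit of the helicase ring, read 10.98, 10.92 and 10.80 in mutant skin, against 10.45, 10.69 and 10.56 in wild type skin. It was the only licensing gene whose groups did not overlap (1 of 9, or 11.1%, against 12.5% of all probe sets). Its difference of 0.34 (SE 0.09) is 1.26-fold (limma adjusted p = 0.134). Mcm5 read 9.57, 9.62 and 9.27 in mutant skin, against 9.28, 9.22 and 9.32 in wild type skin (difference 0.21, SE 0.10, limma adjusted p = 0.404). Mcm4 read 10.61, 10.57 and 10.29 in mutant skin, against 10.41, 10.24 and 10.37 in wild type skin (difference 0.15, SE 0.10, limma adjusted p = 0.556). In both, mutant replicate 3 fell inside the wild type range. Cdt1, which brings the ring to origins, showed a wider split. It read 9.97, 9.93 and 9.35 in mutant skin, against 9.44, 9.38 and 9.51 in wild type skin, a difference of 0.30 (SE 0.16, limma adjusted p = 0.438). Mcm6 read 10.50, 10.54 and 9.94 in mutant skin, against 10.16, 9.98 and 10.16 in wild type skin. Cdc6, the loading ATPase, read 8.54, 8.45 and 7.98 in mutant skin, against 8.26, 8.13 and 8.36 in wild type skin. In these 3 genes mutant replicate 3 was the lowest of the 6 arrays. Mcm2, Mcm3 and the helicase cofactor Cdc45 differed by 0.112, 0.091 and 0.079.

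Without mutant replicate 3, 4 of the 9 licensing genes passed the limma test, all of them higher (44.4%, against 7.95% of all probe sets). Cdt1 was higher by 0.50 (adjusted p = 0.00458), Mcm6 by 0.42 (adjusted p = 0.015), Mcm7 by 0.39 (adjusted p = 0.024) and Mcm5 by 0.32 (adjusted p = 0.0229). With Ccnd2 and Cdkn1c these made 6 of the 38 genes called higher in that fit (15.8%, against 7.95% of all probe sets), and Cdkn1a was the 1 called lower (2.63%, against 6.23%). The median over the 38 genes was 0.129 in that fit, against 0.016 over all probe sets. The 2 mutant arrays left in that fit correlate at 0.9972, so the spread it estimates leaves out the variation that mutant replicate 3 adds.

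**Figure D3:**
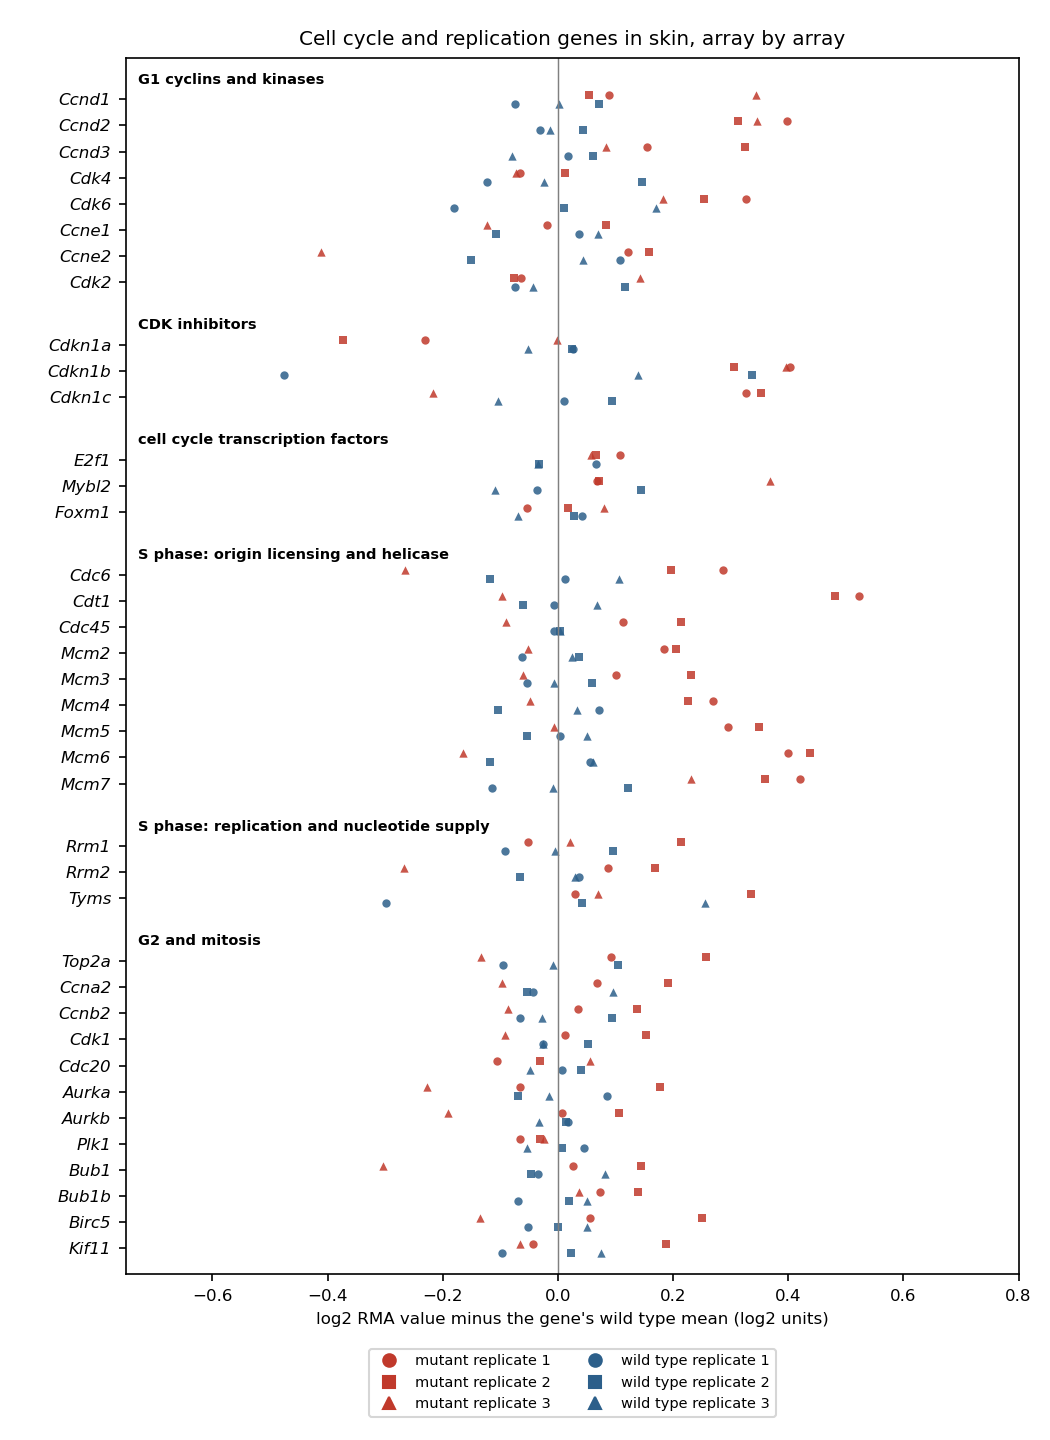
Value of each of the 38 measured genes on every array, as log2 RMA value minus the gene's wild type mean, with mutant arrays in red and wild type arrays in blue and the replicate given by the symbol. In the 9 licensing and helicase genes the red circles and squares (mutant replicates 1 and 2) lie right of all blue symbols, and the red triangle (mutant replicate 3) lies left of both.

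The genes of nucleotide supply were close between the groups. Rrm1 and Rrm2, the subunits of ribonucleotide reductase, differed by 0.061 (SE 0.09, limma adjusted p = 0.82) and -0.004 (SE 0.12, limma adjusted p = 0.994). Rrm2 read 10.83, 10.91 and 10.47 in mutant skin, against 10.77, 10.67 and 10.77 in wild type skin, so mutant replicate 3 was again the lowest of all arrays. Tyms, thymidylate synthase, read 4.85, 5.15 and 4.89 in mutant skin, against 4.52, 4.86 and 5.07 in wild type skin (difference 0.145, SE 0.15, limma adjusted p = 0.714). These values lie below the lower quartile of the arrays, and no detection calls were used, so this probe set says little about the gene. Over the 12 measured S phase genes the median was 0.13, and 0.22 without mutant replicate 3.

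Differences of mitotic transcripts between mutant and wild type skin were small. None of the 12 measured genes passed the limma test, against 0.478% of all probe sets higher and 1.6% lower. At an unadjusted p under 0.05 in limma there were 0, against 8.44% higher and 5.93% lower. The 12 differences ran from -0.044 to 0.083 with a median of 0.026, against 0.025 over all probe sets. Their 95% intervals reached from -0.32 to 0.33. The median was 0.084 without mutant replicate 3, against 0.016 over all probe sets, and -0.040 without mutant replicate 2. In none did the groups separate, against 12.5% of all probe sets with mutant higher and 7.82% with mutant lower. With 12 genes, such counts of 0 are not set apart from these shares. Top2a, the topoisomerase that untangles replicated chromosomes, read 10.11, 10.28 and 9.89 in mutant skin, against 9.93, 10.13 and 10.01 in wild type skin (difference 0.072, SE 0.11, limma adjusted p = 0.823). Ccna2, the cyclin of S phase and G2, read 10.46, 10.58 and 10.29 in mutant skin, against 10.35, 10.34 and 10.49 in wild type skin (difference 0.054, SE 0.09, limma adjusted p = 0.843). In both genes the wild type values lie inside the mutant range.

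The kinase that triggers mitosis and its cyclin gave the same picture. Cdk1 read 10.49, 10.63 and 10.39 in mutant skin, against 10.45, 10.53 and 10.45 in wild type skin. Its mutant mean was 1.02-fold the wild type mean, with a 95% interval of 0.89 to 1.16-fold. Ccnb2, a B-type cyclin that activates Cdk1, differed by 0.029, with a 95% interval of 0.89 to 1.17-fold. Mutant replicate 2 was the highest array for both genes and mutant replicate 3 the lowest.

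Mitotic kinases and checkpoint genes were likewise close. Plk1, which acts from mitotic entry to cell division, read 9.35, 9.39 and 9.40 in mutant skin, against 9.46, 9.43 and 9.37 in wild type skin (difference -0.040, SE 0.07, limma adjusted p = 0.836). Bub1b, a spindle checkpoint kinase, read 9.027, 9.092 and 8.990 in mutant skin, against 8.883, 8.973 and 9.003 in wild type skin (difference 0.083, SE 0.07, limma adjusted p = 0.642). Aurka, Aurkb and Bub1 differed by -0.038, -0.026 and -0.044. Cdc20, which activates the anaphase-promoting complex, read 11.12, 11.20 and 11.29 in mutant skin, against 11.24, 11.27 and 11.18 in wild type skin, a difference of -0.027. Birc5, the survivin gene of the chromosomal passenger complex, and Kif11, the spindle motor gene, differed by 0.057 and 0.026. Mutant replicate 3 lay below every wild type array in 8 of the 12 mitotic genes (66.7%, against 26% of all probe sets) and below both other mutant arrays in 10 (83.3%, against 37.5%). Without it Aurka, Aurkb and Bub1 differed by 0.056, 0.056 and 0.085, and none was called.

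In lists of further pathway genes, the replication genes again had a higher median than the mitotic genes. Of 48 measured further replication genes none passed the limma test, 44 had a positive difference (91.7%, against 57.6% of all probe sets) and the median was 0.115, or 0.207 without mutant replicate 3. At an unadjusted p under 0.05, 3 were higher (6.25%, against 8.44%) and 0 lower (against 5.93%), with the smallest p at Wdhd1, a replisome adaptor gene (0.26, SE 0.07, limma adjusted p = 0.12). Mutant replicates 1 and 2 lay above every wild type array in 35 of the 48 (72.9%, against 27.2%), and mutant replicate 3 lay below both other mutant arrays in 43 (89.6%, against 37.5%). Without mutant replicate 3, 17 were higher and 0 lower (35.4%, against 7.95%). Among 58 further mitotic genes none passed either, 3 were higher (5.17%, against 8.44%) and 0 lower (against 5.93%) at an unadjusted p under 0.05, and the median was 0.043, or 0.151 without mutant replicate 3. The smallest p belonged to Ckap2l, a spindle protein gene (0.23, SE 0.07, limma adjusted p = 0.185). Of the 58 further mitotic genes 42 had a positive difference (72.4%, against 57.6%). In 29 of them mutant replicates 1 and 2 lay above every wild type array (50%, against 27.2%). Mutant replicate 3 lay below both other mutant arrays in 55 of these 58 genes (94.8%, against 37.5%), and without it 4 were higher (6.9%, against 7.95%) and 0 lower.

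Of 39 further G1 and checkpoint genes 0 passed the limma test, with 1 higher (2.56%, against 8.44% of all probe sets) and 3 lower (7.69%, against 5.93%) at an unadjusted p under 0.05 and a median of 0.011. The smallest p was at E2f2 (-0.29, SE 0.07, limma adjusted p = 0.102). Without mutant replicate 3, E2f6 was called higher (2.56%, against 7.95%) and E2f2, E2f4, Myc, Chek2 and Cdc14a lower (12.8%, against 6.23%), with a median of 0.036. Of 18 p53 target genes 0 passed, with 0 higher and 1 lower (5.56%, against 5.93%) at an unadjusted p under 0.05 and a median of 0.034. Plk3, a stress-responsive kinase gene, had the smallest p (-0.65, SE 0.15, limma adjusted p = 0.0865). Without mutant replicate 3, 1 of the p53 targets was higher (5.56%, against 7.95%) and 3 lower (16.7%, against 6.23%), Plk3 among them (-0.80, limma adjusted p = 0.00312), and the list median turned to -0.042. Whether the replication and mitotic lists differ from each other was not tested.

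**Figure D4:**
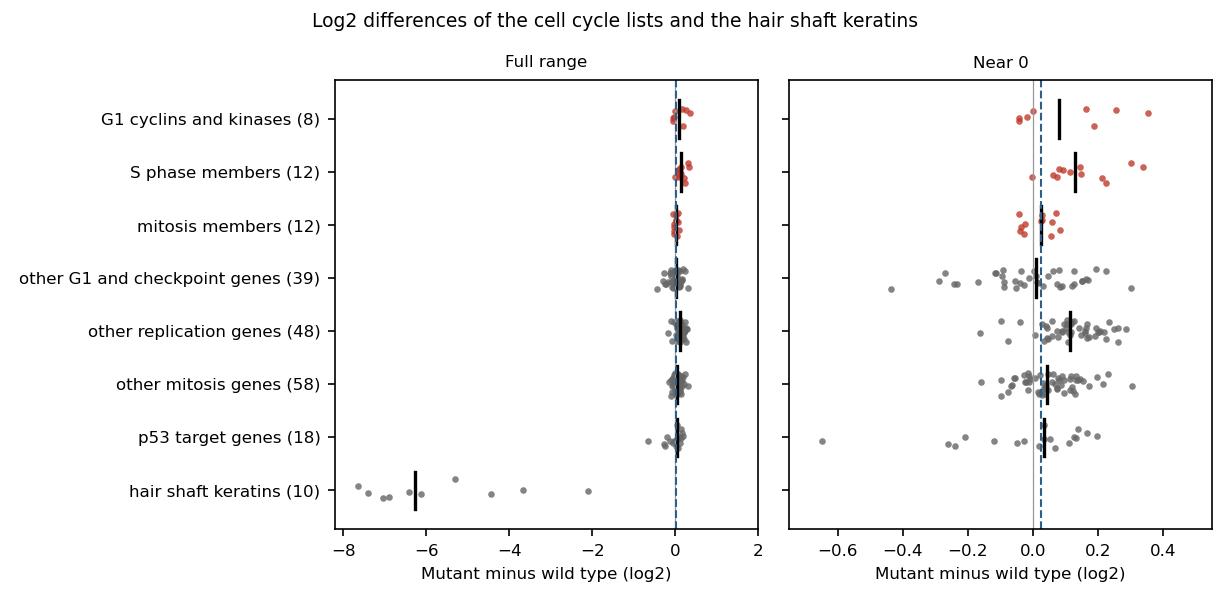
Mutant minus wild type differences (log2) of the genes in each list, with the number of genes in brackets, a black bar at the list median and a dashed line at the median of all probe sets (0.025). The left panel shows the full range, where hair shaft keratins have a median of -6.28, and the right panel enlarges the range near 0, where the S phase genes have a median of 0.13 and the mitotic genes 0.026.

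Marker lists of other cell types varied between the mutant arrays as well. Immune cell markers had list means of 8.38, 8.67 and 8.15 in mutant skin, against 8.09, 8.09 and 8.10 in wild type skin, and 7 of 8 had a positive difference with 0 called (limma; 2 higher and 0 lower at an unadjusted p under 0.05, or 25% against 8.44% of all probe sets). In the fit without mutant replicate 3, 3 were called higher (37.5%, against 7.95% of all probe sets) and 1 lower (12.5%, against 6.23%). Skeletal muscle markers had list means of 11.59, 11.11 and 10.52 in mutant skin, against 10.28, 10.96 and 9.91 in wild type skin, and of the 10 only Myh2 passed (1.23, SE 0.19, limma adjusted p = 0.0195; 10% of the list, against 0.478% of all probe sets), and 4 passed without mutant replicate 3 (40%, against 7.95%). On both lists, as on the replication lists, mutant replicates 1 and 2 read above mutant replicate 3. This order was not particular to them. It was also found in the list means of the G1, mitotic, suprabasal, fibroblast, fat, endothelial and hair shaft keratin genes. Hair matrix and precortex markers ran the other way, at 8.99, 8.96 and 9.17 in mutant skin, against 9.39, 9.47 and 9.44 in wild type skin. Of its 13 markers 2 fell (15.4%, against 1.6% of all probe sets), Foxn1 (-1.21) and Mt4 (-3.51), and the median was -0.098. The median was -0.43 without mutant replicate 3, and 7 were then called lower (53.8%, against 6.23%) and 2 higher (15.4%, against 7.95%). The 7 were Foxn1, Mt4, Hoxc13, Lef1, Msx2, Dlx3 and Crabp1, and the 2 were Shh and Bmp4. Hoxc13 is itself the targeted gene, and its value on mutant replicate 3 lay among those of wild type. Its call without that array therefore says nothing about matrix cells. Inner root sheath markers read 11.42, 11.47 and 11.94 in mutant skin, against 12.03, 12.01 and 12.17 in wild type skin, and of the 11 markers Krt26 and Krt72 fell (18.2%, against 1.6%), with 5 lower without mutant replicate 3 (45.5%, against 6.23%). Of 9 basal keratinocyte markers Lamb3 rose (0.40, SE 0.08, limma adjusted p = 0.0494; 11.1% of the list, against 0.478%), with Itga6 also called higher without mutant replicate 3 (22.2%, against 7.95%), and the list median relative to wild type was 0.056, 0.083 and 0.436 in mutant replicates 1 to 3. Melanocyte, fibroblast, fat, endothelial and red cell lists had 0 called markers (limma). At an unadjusted p under 0.05 in limma, 3 of 8 melanocyte (37.5%) and 1 of 5 fat markers (20%) were lower (against 5.93% of all probe sets). Of 6 fibroblast markers 2 were higher (33.3%, against 8.44%), and the other counts of these lists were 0. Higher at that threshold were also 5 of 10 muscle (50%) and 3 of 9 basal markers (33.3%), with 0 lower. Hair matrix markers had 5 lower (38.5%) and 3 higher (23.1%), and inner root sheath markers 3 lower (27.3%) and 0 higher. Of 8 suprabasal markers 7 had a positive difference (87.5%, against 57.6% of all probe sets), and the list median was 0.092. At an unadjusted p under 0.05 in limma, 3 of them were higher (37.5%, against 8.44%) and 1 lower (12.5%, against 5.93%). The 1 called suprabasal marker was Ivl, which fell (12.5%, against 1.6%), also without mutant replicate 3. In the fit without that array 6 of 8 melanocyte markers were called lower (75%, against 6.23%), namely Tyr, Tyrp1, Pmel, Mlana, Mitf and Slc45a2. In the same fit 2 of 5 fat markers (Adipoq and Cidec) and 1 of 6 fibroblast markers (Pdgfra) were called higher (40% and 16.7%, against 7.95%), 1 of 3 red cell markers (Slc4a1) lower (33.3%, against 6.23%) and 0 of 6 endothelial markers. The part of these cells in the cell cycle values was not tested.

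**Figure D5:**
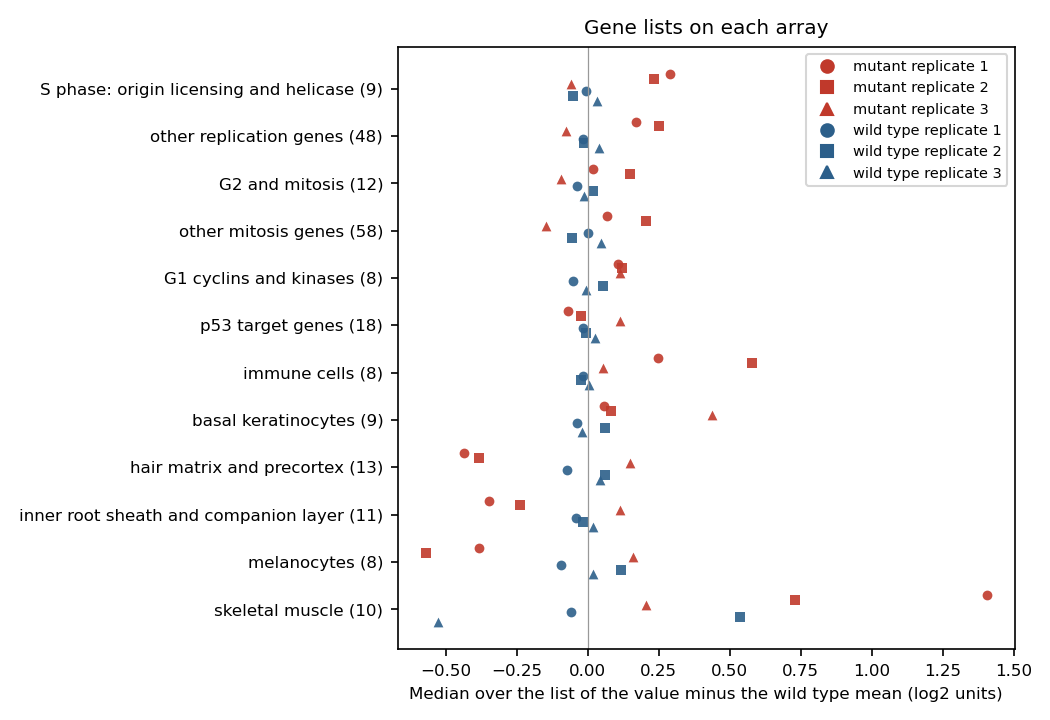
Median over each list of the value minus the gene's wild type mean (log2 units) on every array, with the number of genes in brackets, mutant arrays in red and wild type arrays in blue. For licensing and helicase genes mutant replicates 1 and 2 lie at 0.288 and 0.232 and mutant replicate 3 at -0.06, while for basal keratinocyte markers mutant replicate 3 lies highest, at 0.436.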

How the data were processed

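The authors deposited log2 values made with RMA, per the submitters' processing notes. The sources used here do not give its version. RMA subtracts background, forces all arrays to the same distribution and combines the probes of a probe set, which hides shifts in total RNA and compresses differences near background. Of 16395 probe sets, 64 controls were left out. The array annotation gave 1 symbol for 15644 of the 16331 others and did not list 687.

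Groups came from the sample titles. Mutant minus wild type differences were tested in R 4.3.3 with limma 3.58.1 (linear model with moderated variance, two-sided) without filter or block, with Benjamini-Hochberg adjustment at 0.05. P-values reflect only how these samples vary, which may be technical in part. The median standard error was 0.091. Motif searches and figures used Python 3.11.15 and matplotlib 3.10.9.

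Named in full were called genes and the 4 smallest p-values of each role. Other lists gave their called genes or the smallest p. Mcm6, Cdc6, Ccne2, Cdk1, Cdc20 and Krt35 were also shown. The genes and lists were chosen with earlier results of these data known. Alternatives were a low-level filter, repeated quantile normalisation, centring, array weights, an intensity trend with robust prior, the replicate number as a block, and leaving out each array. The fit without mutant replicate 3 was extended to the other lists after the data had been seen.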

Additional observations from a re-analysis of the deposited data

How the results depend on the processing

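All 38 intervals stayed inside a 2-fold change under every alternative run that kept the gene. The filter on low mean levels, repeated quantile normalisation, centring and the intensity trend with a robust prior each left Ccnd2 as the only cell cycle gene called. Array weights called 1880 of the 16331 probe sets against 339, with 1041 higher and 839 lower. Of the 38 cell cycle genes 4 were then called higher (Ccnd2, Cdt1, Mcm5 and Mcm7) and 0 lower. With the replicate number as a block 197 probe sets and 0 cell cycle genes were called. Same-numbered arrays did not deviate together over all probe sets (correlations 0.036, -0.119 and -0.087). With 3 arrays a group these correlations cannot exclude a weak pairing of the samples by number. Leaving out 1 array gave 151 to 2316 called probe sets, the highest without mutant replicate 3, when all 339 were among them. It gave 0 to 6 cell cycle genes higher and 0 to 1 lower, with 0 in every fit but that one. Medians then ran from 0.068 to 0.129 for G1 genes (0.129 without wild type replicate 2), 0.058 to 0.218 for S phase genes and -0.040 to 0.084 for mitotic genes. The adjusted p of Ccnd2 ran from 0.0112 to 0.218 in limma. Without mutant replicate 3, 8 of the 38 genes turned sign, with 0 of these called in either fit (Ccne1 at 0.033, Ccne2 at 0.14, Cdk2 at -0.071, Aurka and Aurkb at 0.056, Bub1 at 0.085, and Foxm1 and Rrm2 as given here). Foxm1 was at -0.009 and Rrm2 at 0.095 under array weights, and Rrm2 at 0.001 after repeated quantile normalisation. Leaving out 1 array gave -0.020 to 0.049 for Foxm1 (-0.018 without mutant replicate 3), -0.004 to 0.273 for Tyms, -0.015 to 0.117 for Rrm1, -0.090 to 0.128 for Rrm2 (0.015 and 0.011 without wild type replicates 1 and 3), -0.021 to 0.175 for Top2a and -0.014 to 0.130 for Ccna2. The cause of these changes was not tested. Fits without an array have fewer samples.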
